A study of Saccharomyces cerevisiae with 6 samples.

Results

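The general stress genes of the budding yeast Saccharomyces cerevisiae were followed through 10 named genes out of the 6416 rows of the deposited table. They were 8 effectors (HSP12, CTT1, DDR2, MOH1, RTN2, TMA10, SIP18 and YGP1) and the transcription factor genes MSN2 and MSN4. The genes were chosen by name, with earlier results of these data known, and each matched 1 row. All 10 had values above 0 in every library, the lowest being 15.2 for SIP18. RNA was sequenced from 2 strains made in BY4741, a laboratory strain of mating type a that lacks working copies of HIS3, LEU2, MET17 and URA3. The first strain expressed NdeltaCit1-DS/AA and the other NdeltaCit1-DS/AA-H/G, both forms of the citrate synthase Cit1 without the presequence that sends it to mitochondria, and the strains go by the names DS/AA and, with the added change, DS/AA-H/G. Galactose was the sole source of carbon, in a synthetic complete medium. The substitutions behind the names, the promoter that drives the protein, and the number of clones are not given in the labels. Each strain had 3 libraries, numbered 1 to 3 in DS/AA against 4 to 6 in DS/AA-H/G, and the labels do not say whether they were separate cultures, so p-values reflect only the spread between these libraries and that spread may be technical.

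As background, Msn2 and Msn4 are related zinc finger activators that serve as the shared end point of many stress signals in yeast. In growing cells protein kinase A, driven by cyclic AMP, keeps them out of the nucleus. When its activity drops, or when heat, osmotic, oxidative or nutrient stress sets in, they enter the nucleus and bind the stress response element, AGGGG on either strand, before a large set of genes. These genes encode membrane and desiccation protectants, antioxidant enzymes, chaperones and enzymes of storage carbohydrates. The proteins are controlled mostly by location and modification, so their transcript levels are only 1 view of the pathway.

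The stretches before 4 of the genes are printed to show where this element lies before genes that all differed between the strains. The stretches are not all of the same length or at the same distance from the coding start. Their match counts can therefore not be compared as printed. Each runs 5′ to 3′ on the gene's strand, from the R64 genome, with AGGGG or its complement CCCCT in capitals. Each stops at least 100 bases before the coding start, because the annotation does not mark the transcribed leader. HSP12 and DDR2 are dense in the element, CTT1 is a classic target, and MOH1, with the largest difference between the strains, holds a single match.
HSP12, chrVI:106806-107085, plus strand: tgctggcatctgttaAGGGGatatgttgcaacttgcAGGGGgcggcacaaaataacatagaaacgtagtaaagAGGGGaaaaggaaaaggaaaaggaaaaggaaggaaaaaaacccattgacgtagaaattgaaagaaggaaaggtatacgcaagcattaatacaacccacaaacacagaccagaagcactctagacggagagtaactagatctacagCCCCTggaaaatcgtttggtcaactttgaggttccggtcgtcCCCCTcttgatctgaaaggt
CTT1, chrVII:654234-654533, plus strand: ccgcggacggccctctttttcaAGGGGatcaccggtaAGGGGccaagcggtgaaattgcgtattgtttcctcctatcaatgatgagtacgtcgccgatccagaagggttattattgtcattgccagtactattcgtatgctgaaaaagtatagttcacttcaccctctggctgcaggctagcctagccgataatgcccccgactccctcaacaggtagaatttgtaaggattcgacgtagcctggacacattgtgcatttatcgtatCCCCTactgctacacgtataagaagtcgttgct
DDR2, chrXV:231856-232105, minus strand: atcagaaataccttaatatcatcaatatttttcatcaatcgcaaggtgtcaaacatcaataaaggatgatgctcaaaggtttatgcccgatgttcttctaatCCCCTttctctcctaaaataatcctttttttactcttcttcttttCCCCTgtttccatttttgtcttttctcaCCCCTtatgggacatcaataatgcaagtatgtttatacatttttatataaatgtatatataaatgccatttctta
MOH1, chrII:126478-126727, plus strand: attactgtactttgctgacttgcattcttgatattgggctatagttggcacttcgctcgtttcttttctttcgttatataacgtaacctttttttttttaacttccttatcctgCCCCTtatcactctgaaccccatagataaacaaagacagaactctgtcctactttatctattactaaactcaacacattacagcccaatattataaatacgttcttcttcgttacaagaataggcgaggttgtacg

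In the 500 bases before the coding start, AGGGG on either strand occurred 5 times before HSP12, 4 times before DDR2, 3 times before CTT1 and 2 times before SIP18. It occurred 1 time each before MOH1, RTN2, TMA10 and YGP1, and there was no match before MSN2 or MSN4. Among all 6316 protein-coding rows of the nuclear genome, 34.2% had at least 1 match in a window of that length, 8.20% at least 2, 1.88% at least 3, 0.443% at least 4 and 0.222% at least 5. All 8 effectors held a match and neither regulator did. The effectors were chosen by name as general stress genes, so their matches are not independent of that choice. No other motif was searched. A match describes the letters only, and binding was not measured.

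**Figure D1:**
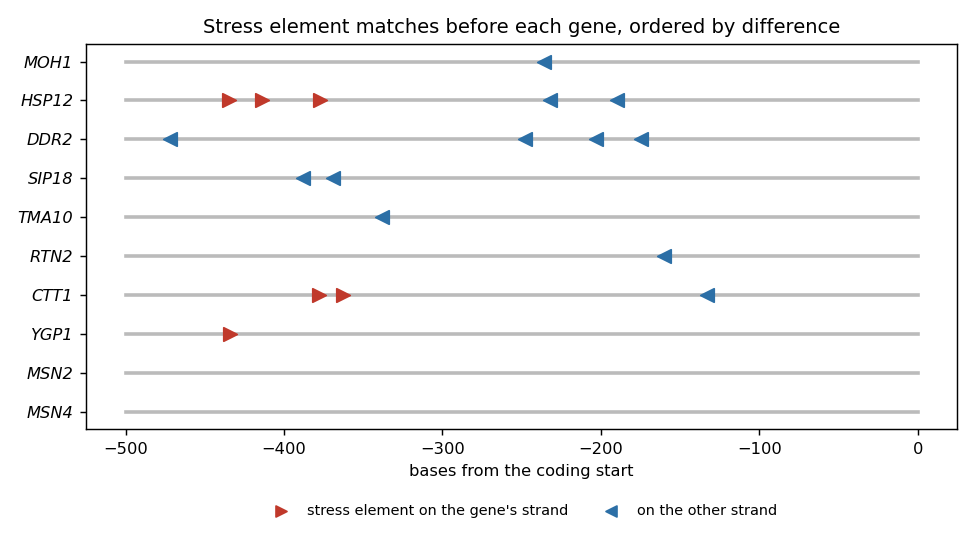
Position of each AGGGG match in the 500 bases before the coding start (horizontal axis, bases), for the 10 genes ordered by their difference between the strains, largest at the top; triangles pointing right are on the gene's strand and those pointing left on the other. HSP12 holds 5 matches and DDR2 4, MOH1 at the top holds 1, and the lines of MSN2 and MSN4 are empty.

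Each library held 30277564 to 32702577 estimated reads, and levels are given as scaled estimated counts, the authors' read estimates divided by 1 factor per library. The transcript counted as CIT1 stood at 505016 to 549422 in DS/AA, below the 1193542 to 1217462 of the other strain, so the form expressed and its transcript level differ together and cannot be told apart. Differences are the mean log2(value + 1) of DS/AA less that of the other strain, from limma fitted on 6197 tested genes, and a gene with a Benjamini-Hochberg adjusted p under 0.05 was called. Of the tested genes 41.8% were called, 22.1% higher and 19.7% lower, so 52.8% of calls were higher, against 36.8% under quantile normalization and 71.1% with columns scaled to equal totals. As a check of the labels, the a-specific genes STE2, BAR1 and STE6 were at 5416 or more in every library while the alpha-specific genes STE3, MF(ALPHA)1 and MF(ALPHA)2 were at 375 to 525, 46.0 to 76.5 and 2.01 or less. The a-factor genes MFA1 and MFA2 were low, at 0.94 to 16.3, below the alpha-specific STE3 and MF(ALPHA)1. The check thus did not hold for all a-specific genes, and the reason was not tested. The median level per kilobase was 1.95 over the 21 protein-coding rows under 150 nt, 18.2 over the 65 rows of 150 to 199 nt, 376 over the 190 rows of 200 to 299 nt, 76.6 over the 967 rows of 300 to 499 nt and 1561 over the 5092 rows of 500 nt or more. DDR2, at 186 nt, SIP18, at 240 nt, and TMA10, at 261 nt, are short rows. HSP12, at 330 nt, and MOH1, at 417 nt, fall in the bin of 300 to 499 nt. The part of length in the levels of these genes was not tested.

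No library of the parent BY4741 or of another reference strain was available. Here and below, "rose" and "fell" therefore mean called higher or lower in DS/AA than in DS/AA-H/G. Which of the 2 strains departs from the level of the parent was not measured. Of the 10 genes, 7 rose and 1, MSN4, fell, beside 22.1% and 19.7% of all tested genes. HSP12, MOH1 and DDR2 rose between 3.60-fold and 5.14-fold, while CTT1, RTN2 and YGP1 rose between 1.43-fold and 1.66-fold. SIP18 rose 2.38-fold from a very low level. The 2 genes that were not called were TMA10, which stood 1.80-fold higher in DS/AA with a wide spread, and MSN2, which stood 1.05-fold higher. Rises of at least 1 on the log2 scale were seen for 4 of the 8 effectors and for 3.50% of all tested genes. The count of 4 depends on the setting. Over the alternative settings given below, SIP18, 1 of the 4, ranged from 0.83 to 1.42, and TMA10, not among the 4, from 0.618 to 1.08. The median difference was 0.99 over the 8 effectors and 0.77 over the 10 genes, against 0.00726 over all tested genes, whose interquartile range was -0.12 to 0.17. The strains' libraries did not overlap for any of the 10 genes, 9 of them higher in DS/AA, where 52.7% of tested genes showed no overlap, 27.8% with DS/AA higher and 25.0% with it lower. In bulk RNA, a change in every cell cannot be told apart from a change in the share of cells that express a gene.

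**Figure D2:**
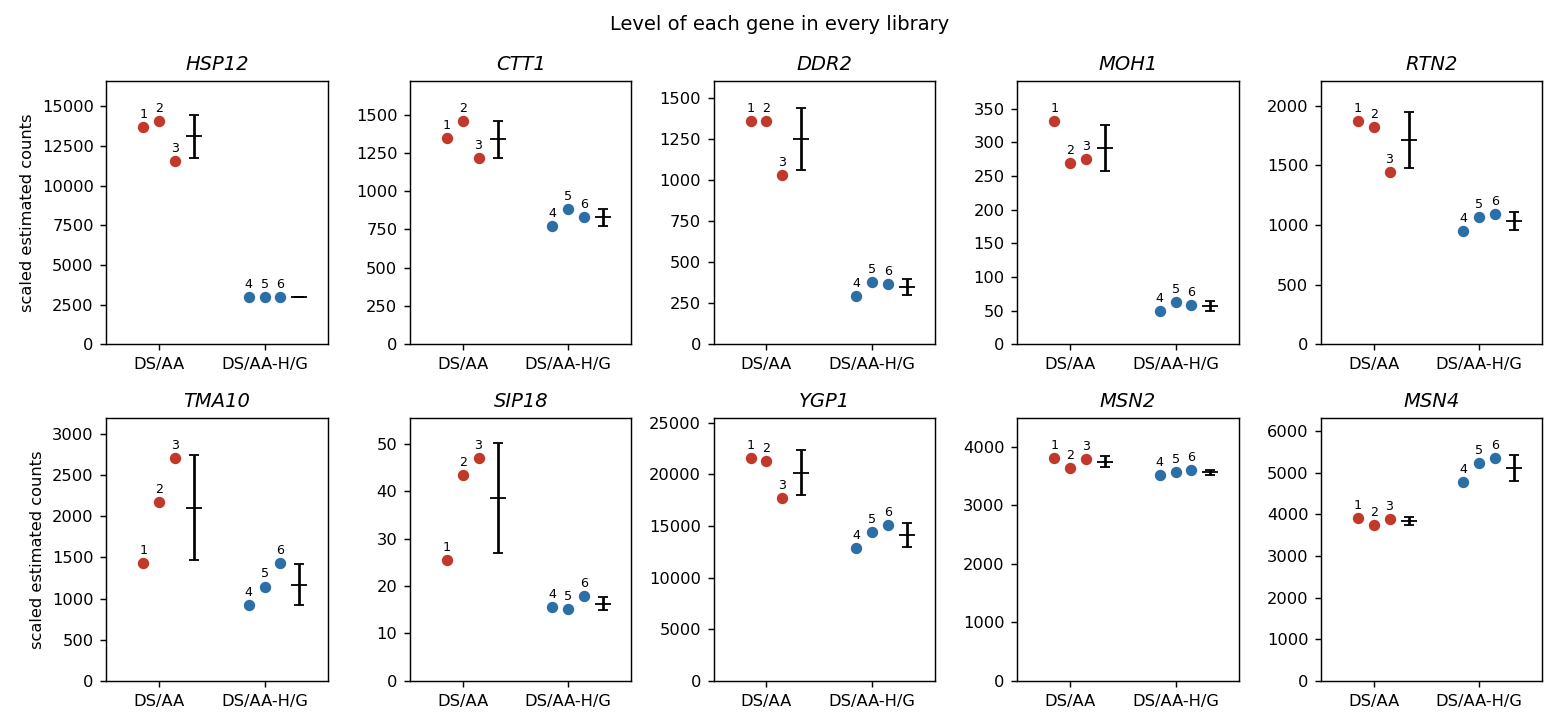
Scaled estimated counts (vertical axes, each from 0) of the 10 genes in every library, with red points for DS/AA libraries 1 to 3, blue points for DS/AA-H/G libraries 4 to 6, and the mean ± SD of each strain in black. HSP12, DDR2 and MOH1 show the widest gaps between strains, TMA10 spreads widely within both, and MSN4 is the gene that stands lower in DS/AA.

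HSP12 encodes a small, strongly hydrophilic protein that binds the plasma membrane and preserves its organisation under stress, and its transcript is a frequent reporter of Msn2/Msn4 activity. It lies on chromosome VI from 107256 to 107585 on the plus strand (YFL014W, R64). Its level was 13721, 14073 and 11549 scaled counts in DS/AA libraries 1 to 3 against 2961, 2982 and 2962 in DS/AA-H/G libraries 4 to 6. Every DS/AA library was far above every DS/AA-H/G library, and the latter were nearly equal. The means were 13114 ± 1367 and 2968 ± 11.5 (SD, n = 3 each), a 4.42-fold difference. The log2 difference was 2.14 ± 0.06 (SE), with a limma adjusted p of 1.74e-09, and it ranked 51st among all tested genes. An exact two-sided permutation test over the 6 libraries gave p = 0.1, the smallest that 3 against 3 allow, as it did for each of the 10 genes. The coefficient of variation in DS/AA-H/G, 0.388%, was below the 1.85% that counting about 2929 reads alone would give. The 3 values thus lie closer together than their counting error. In DS/AA-H/G the same held for MOH1 (12.7% against 13.4%), SIP18 (8.5% against 25%) and MSN2 (1.02% against 1.69%), and not for the remaining genes of the 10.

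DDR2 encodes a small protein whose gene responds to many stresses and to DNA damage, and its molecular role is unknown. Its row spans chromosome XV from 231570 to 231755 on the minus strand (YOL052C-A, R64). It stood at 1360, 1360 and 1031 in DS/AA and at 294, 382 and 367 in DS/AA-H/G. DS/AA library 3 was the lowest of its strain but still more than the highest DS/AA-H/G library. The difference was 3.60-fold, or 1.84 ± 0.13 on the log2 scale (limma adjusted p = 2.77e-06). HOR7, its paralog and a gene of hyperosmotic response, rose less, by 0.46 ± 0.07 (adjusted p = 0.000176, limma), from 804, 835 and 866 to 1104, 1274 and 1082. The 2 paralogs shared a stretch of 38 nt at 89.5% identity.

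MOH1 is a gene of unknown molecular function needed for survival in stationary phase, the state cells enter when nutrients run out. The gene is on chromosome II from 126828 to 127244 on the plus strand (YBL049W, R64). It stood at 332, 269.9 and 275 in DS/AA and at 48.9, 63.0 and 58.7 in DS/AA-H/G. The strains did not overlap, and DS/AA library 1 was the highest. At 2.34 ± 0.14 on the log2 scale, or 5.14-fold, it had the largest difference of the 10 genes (limma adjusted p = 1.34e-07). The ratio of MOH1 to HSP12 in single libraries overlapped between strains, so their differences, 0.20 ± 0.15 apart on the log2 scale, were not separated.

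CTT1 encodes catalase T, the cytosolic enzyme that breaks down hydrogen peroxide. It lies on chromosome VII from 654634 to 656322 on the plus strand (YGR088W, R64). It stood at 1348, 1457 and 1215 in DS/AA and at 769, 883 and 832 in DS/AA-H/G. The lowest DS/AA library was above the highest DS/AA-H/G library. The difference was 0.69 ± 0.07 on the log2 scale, or 1.62-fold (limma adjusted p = 1.36e-05). CTA1, which encodes the peroxisomal catalase, rose by 0.52 ± 0.13 (limma adjusted p = 0.00774), from 320, 239 and 266 to 330, 428 and 429.

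RTN2 encodes a reticulon, a protein that bends the membrane of the endoplasmic reticulum into tubules. Its coordinates are chromosome IV, 94605 to 95786 on the plus strand (YDL204W, R64). It stood at 1871, 1824 and 1446 in DS/AA and at 946, 1063 and 1091 in DS/AA-H/G, again without overlap. The difference was 0.72 ± 0.10 on the log2 scale, or 1.66-fold (limma adjusted p = 0.000271). Its more abundant paralog RTN1 was not called, at 14943 to 15799 in DS/AA against 15544 to 17833 in DS/AA-H/G (log2 difference -0.11 ± 0.05, limma adjusted p = 0.072). The ratio of RTN2 to CTT1 differed by 0.03 ± 0.07 on the log2 scale between strains, and its libraries overlapped.

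YGP1 encodes a secreted glycoprotein of the cell wall known for its rise when nutrients become limiting. The row is on chromosome XIV from 336545 to 337609 on the plus strand (YNL160W, R64). It stood at 21593, 21272 and 17664 in DS/AA and at 12829, 14433 and 15117 in DS/AA-H/G. It was the smallest rise of the 7, at 0.51 ± 0.09 on the log2 scale or 1.43-fold (limma adjusted p = 0.0034). SPS100, its paralog and a spore wall gene, was far less abundant, yet rose by 1.57 ± 0.17 (limma adjusted p = 1.83e-05), from 37.2, 48.8 and 35.6 to 116, 127 and 120.

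SIP18 encodes a hydrophilin, one of the small hydrophilic proteins that protect yeast during drying. The gene occupies chromosome XIII from 611016 to 611255 on the plus strand (YMR175W, R64). It was the lowest of the 10 genes, at 25.4, 43.3 and 47.0 in DS/AA against 15.7, 15.2 and 17.8 in DS/AA-H/G. DS/AA library 1 stood nearest to the other strain, and there was no overlap. The difference was 1.15 ± 0.28 on the log2 scale (limma adjusted p = 0.00628). Counting error alone is 25% at the 16 reads of a DS/AA-H/G library and 15.9% at the 39.3 reads of a DS/AA library, so depth limits this value. GRE1, the paralog of SIP18 and also a hydrophilin gene, rose 7.65-fold, from 89.1, 93.5 and 95.4 to 832, 724 and 571 (log2 difference 2.91 ± 0.13, limma adjusted p = 8.4e-09).

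TMA10 encodes a small protein found with ribosomes. It lies on chromosome XII from 783127 to 783387 on the minus strand (YLR327C, R64). It stood at 1435, 2170 and 2708 in DS/AA and at 927, 1146 and 1428 in DS/AA-H/G. The lowest DS/AA library and the highest DS/AA-H/G library were nearly equal. The log2 difference was 0.82 ± 0.30 with a 95% interval of 0.04 to 1.61, and it was not called (limma adjusted p = 0.089). Without DS/AA replicate 1 it was called, at 1.08 (limma adjusted p = 0.0197), and over all alternatives its limma adjusted p ranged up to 0.206. In the authors' deposited table its q was 1.22e-05. STF2, its paralog and a gene of desiccation resistance, fell by 0.22 ± 0.07 (limma adjusted p = 0.0282), from 786, 884 and 861 to 671, 785 and 716, and this call was lost without DS/AA replicate 3, DS/AA-H/G replicate 5 or DS/AA-H/G replicate 6, with columns scaled to equal totals, and by limma without trend or robust moderation.

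The regulator genes did not follow the effectors. MSN4 lies on chromosome XI from 323228 to 325120 on the plus strand (YKL062W, R64), and MSN2 on chromosome XIII from 344403 to 346517 on the minus strand (YMR037C). MSN4 stood at 3903, 3742 and 3879 in DS/AA and at 4774, 5224 and 5358 in DS/AA-H/G. Every DS/AA library was lower than every DS/AA-H/G library, and MSN4 fell by 0.41 ± 0.05 on the log2 scale (limma adjusted p = 1.84e-05), to a level 0.75-fold that in DS/AA-H/G. MSN2 stood at 3813, 3644 and 3786 in DS/AA and at 3527, 3565 and 3600 in DS/AA-H/G. Its log2 difference was 0.07 ± 0.04 (95% interval -0.01 to 0.15, limma adjusted p = 0.131). It was called under 2 of the scalings, with columns scaled to equal totals at 0.13 (limma adjusted p = 0.0133) and with equal totals without CIT1 at 0.10 (limma adjusted p = 0.0497), and its limma adjusted p ranged up to 0.265 over the others.

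The ratio of MSN4 to MSN2 within a library does not depend on a scaling factor. On the log2 scale it was 0.03, 0.04 and 0.03 in DS/AA against 0.44, 0.55 and 0.57 in DS/AA-H/G. MSN4 thus exceeded MSN2 by about 1.43-fold in DS/AA-H/G and by 1.02-fold in DS/AA, as scaled counts not divided by length. The ratio differed by -0.48 ± 0.04 (SE, n = 3 each) between strains, and the exact two-sided permutation p was 0.1, the smallest possible. The 2 genes shared a stretch of 137 nt at 75.9% identity, and none of the 10 genes shared 100 nt at 95% identity or more with another place in the genome, or overlapped another row of the table.

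**Figure D3:**
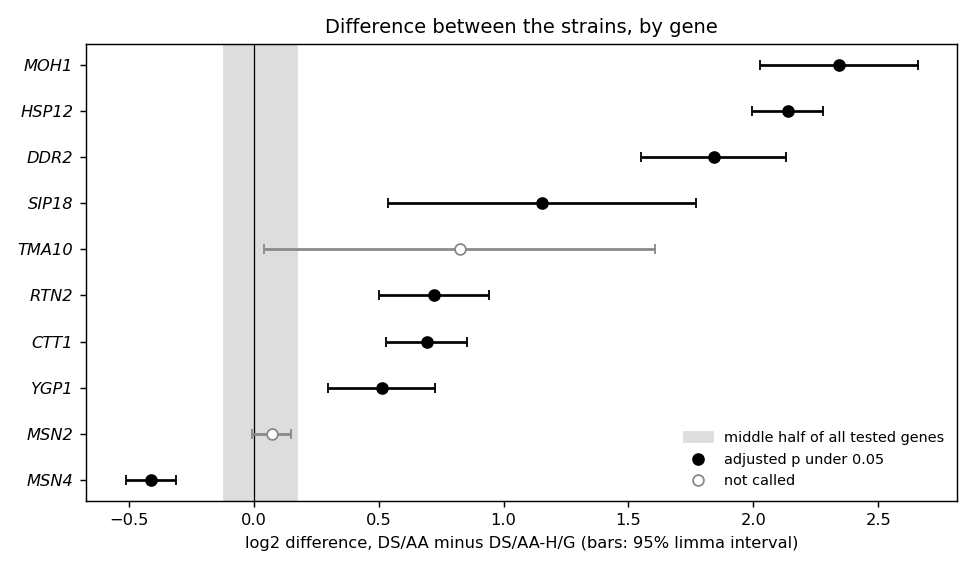
Log2 difference between the strains (horizontal axis, positive where DS/AA is higher) for each of the 10 genes, with its 95% limma interval as a bar; filled points were called, open points were not, and the grey band is the interquartile range of all tested genes, -0.12 to 0.17. MOH1, HSP12 and DDR2 lie at 1.84 or more, TMA10 has the widest interval, and MSN4 lies below 0.

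The order of the differences was MOH1, HSP12, DDR2, SIP18, TMA10, RTN2, CTT1, YGP1, MSN2 and MSN4. Between neighbours in this order, the ratio of the 2 genes in single libraries did not overlap between strains for HSP12 against DDR2 (0.30 ± 0.12 on the log2 scale), CTT1 against YGP1 (0.18 ± 0.07), YGP1 against MSN2 (0.44 ± 0.12) and MSN2 against MSN4 (0.48 ± 0.04). The other 5 neighbouring pairs overlapped. An exact permutation test of 3 against 3 libraries cannot go below p = 0.1, so these 9 pairs are described by their values and SE.

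Per kilobase of coding length, the order of levels also differed between strains. The order within a strain sets short rows such as DDR2 beside long ones such as MSN4. Levels per kilobase varied with row length over all rows, and the part of length in this order was not tested. In DS/AA, HSP12 was first, at 39740 ± 4142 scaled counts per kilobase (SD, n = 3), ahead of YGP1 at 18945 ± 2049. In DS/AA-H/G, YGP1 was first, at 13264 ± 1103, ahead of HSP12 at 8995 ± 34.9. Within each strain the libraries of these 2 genes did not overlap. DDR2 stood at 6723 ± 1022, above MSN4 at 2029 ± 45.9, in DS/AA, and at 1868 ± 254, below MSN4 at 2704 ± 162, in DS/AA-H/G. RTN2, CTT1, MOH1 and SIP18 held the last 4 places in both strains, with SIP18 lowest at 161 ± 48.1 and 67.7 ± 5.75. Neighbours whose libraries overlapped were TMA10 and DDR2 and also CTT1 and MOH1 in DS/AA, and DDR2 and MSN2 in DS/AA-H/G.

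The genes also differed in how their replicates spread. DS/AA library 3 was the lowest of its strain for HSP12, CTT1, DDR2, RTN2 and YGP1, by 0.14 to 0.27 below the strain mean on the log2 scale. The same library was the highest for TMA10 and SIP18, by 0.41 and 0.33 above it, and DS/AA library 1 was the lowest for both, by 0.50 and 0.54. In DS/AA-H/G, library 4 was the lowest for 9 of the 10 genes, though at only -0.004 for HSP12 and -0.015 for MSN2 from the strain mean. It also had the smallest scaled total of its strain, 31761853 against 31947263 and 32121992. The share of all tested genes that were lowest in library 4 was not counted. The coefficients of variation were largest for TMA10, at 30.4% in DS/AA against 21.5% in DS/AA-H/G, against counting errors of 2.16% and 2.95%. Those of MSN2 were 2.43% and 1.02%, against counting errors of 1.62% and 1.69%.

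**Figure D4:**
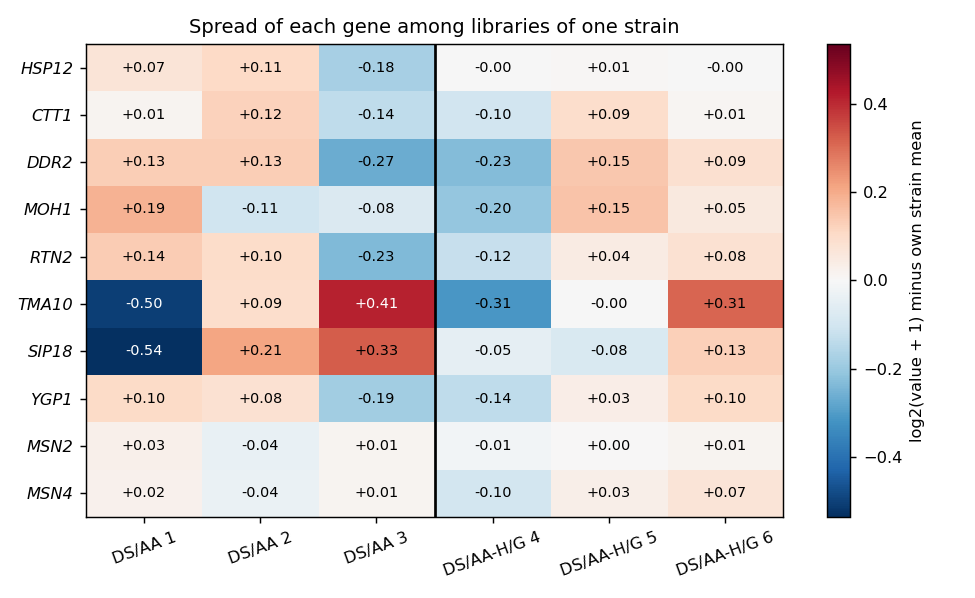
Deviation of each library from the mean of its own strain (colour and printed value, log2(value + 1) scale) for the 10 genes, with DS/AA libraries left of the line and DS/AA-H/G libraries right of it. In DS/AA library 3, HSP12, CTT1, DDR2, RTN2 and YGP1 are below their mean while TMA10 and SIP18 are above it.

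The other genes of the pathway were taken from lists of textbook members, which were also made with earlier results of these data known. Of 44 other Msn2/Msn4 targets, 32 (72.7%) rose and 4 (9.09%) fell, beside 22.1% and 19.7% of all tested genes, with a median difference of 0.36 against 0.00726 over all tested genes. Among the risers, HSP26, a small chaperone of protein aggregates, stood at 11358, 16096 and 12478 in DS/AA against 498, 512 and 613 in DS/AA-H/G, a log2 difference of 4.61 ± 0.15 (limma adjusted p = 2.14e-06). FMP16, of unknown function, rose by 1.77 ± 0.16, from 72.4, 69.1 and 58.7 to 268, 235 and 191. AMS1, which encodes the vacuolar mannosidase, rose by 1.56 ± 0.05, from 1538, 1551 and 1636 to 4413, 4994 and 4586. The 4 that fell, named with their values in view, were HXK1 of hexose phosphorylation at -0.67, PGM2, the main phosphoglucomutase gene, at -0.62, GPH1, the glycogen phosphorylase gene, at -0.33 and GSY2, a glycogen synthase gene, at -0.19. GDB1, of glycogen debranching, rose by 0.17 (limma adjusted p = 0.026), while GLC3, of glycogen branching, and GLK1, a glucokinase gene, were not called at 0.05 and 0.07. HXK1 and GLK1 each overlap another row on the same strand, over 143 nt and 106 nt, and are uncertain, and GPH1 overlaps one on the opposite strand. HSP26 was known from earlier results to be a large riser when the list was made.

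Of 7 stationary-phase genes, 6 (85.7%) rose and 0 fell, beside the same 22.1% and 19.7%, with a median difference of 0.60 against 0.00726. SPG4, needed to survive high temperature in that state, stood at 182, 210.5 and 161 in DS/AA against 16.6, 14.2 and 14.7 in DS/AA-H/G, or 12.1-fold higher (log2 difference 3.51 ± 0.19, limma adjusted p = 3.66e-08). SPG1, with the same requirement, rose by 2.19 ± 0.30 from only 8.81, 7.11 and 5.24, and the membrane protein gene FMP45 by 1.30 ± 0.11. Of the 6 paralogs and counterparts given above, 4 rose and 1 fell (66.7% and 16.7%, against 22.1% and 19.7% of all tested genes). Their median difference was 0.49.

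**Figure D5:**
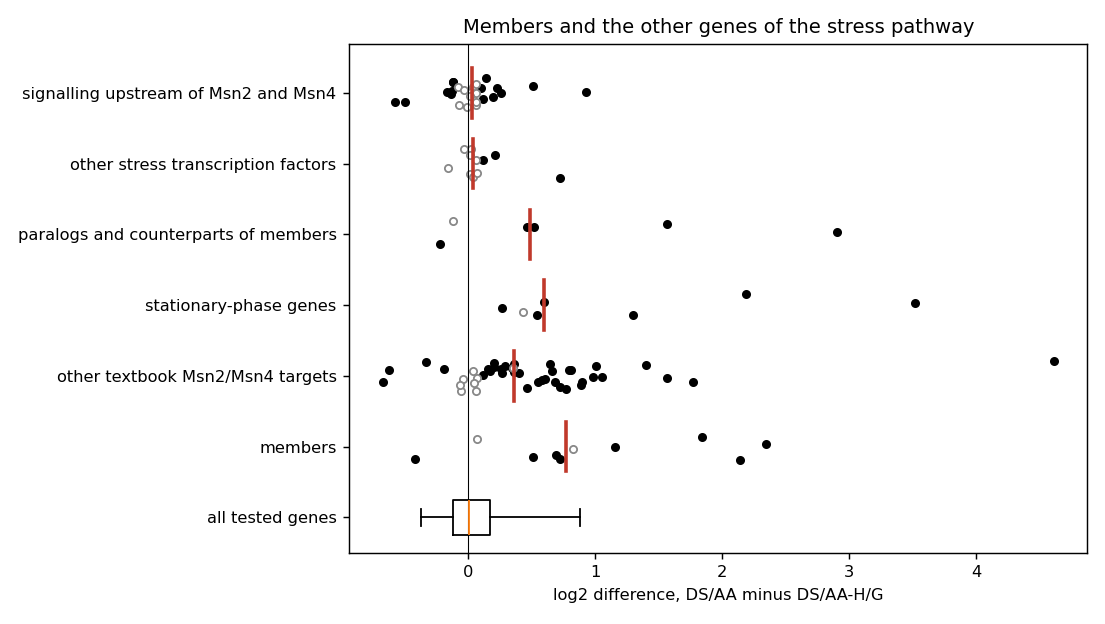
Log2 difference between the strains (horizontal axis) of the 10 genes ("members") and of each list of pathway genes, 1 point per gene, filled where called, with a red line at the median; the box at the bottom shows the median, quartiles and 5th to 95th percentiles of all tested genes. The target and stationary-phase lists lie mostly right of 0, with HSP26 farthest out, while the signalling and transcription factor lists centre near 0.

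Of the 26 signalling genes upstream of Msn2 and Msn4, 8 (30.8%) rose and 7 (26.9%) fell, shares near the 22.1% and 19.7% of all tested genes, and the median difference was 0.03 against 0.00726. With columns scaled to equal totals 12 rose and 3 fell. Over all tested genes the same scaling gave 1841 higher and 747 lower, against 1368 and 1222 in the main fit. PDE1, which encodes a phosphodiesterase that degrades cyclic AMP, rose most, from 1851, 1850 and 1781 to 3553, 3632 and 3264 (log2 difference 0.93 ± 0.05, limma adjusted p = 2.27e-08). RAS1, which encodes a GTPase that activates adenylate cyclase, fell from 5466, 5273 and 5240 to 3955, 3245 and 3548 (-0.58 ± 0.06, limma adjusted p = 2.12e-05). GPA2, the G protein gene of the sugar receptor branch, rose from 2734, 2929 and 3054 to 4360, 4269 and 3788 (0.51 ± 0.06, limma adjusted p = 2.76e-05). The counts also depended on single libraries. Without DS/AA replicate 2 or DS/AA-H/G replicate 4, 5 rose, where 1176 and 1187 of all tested genes did. Without DS/AA replicate 3, DS/AA-H/G replicate 5 or DS/AA-H/G replicate 6, 4 fell, where 1086, 903 and 1035 of all tested genes did.

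Of 11 other stress transcription factor genes, 3 (27.3%) rose, near the 22.1% of all tested genes, and 0 fell, beside 19.7%. XBP1, which encodes a repressor made during stress and starvation, rose from 1465, 1343 and 1411 to 2265, 2420 and 2272 (log2 difference 0.72 ± 0.05, limma adjusted p = 2.56e-07). HOT1, of the osmotic response, rose by 0.21 ± 0.04 and HSF1, the heat shock factor gene, by 0.12 ± 0.04, and both overlap rows on the opposite strand. With columns scaled to equal totals 5 rose, where 1841 of all tested genes did. Under quantile normalization 5 also rose, where 1034 of all tested genes did, against 1368 in the main fit.

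The search for genes closest to HSP12 in pattern over the 6 libraries left out the 10 genes beforehand. Closeness was the Euclidean distance of log2 values centred per gene, and the 5 closest genes were named. They were MCH5, which encodes a riboflavin transporter, at a distance of 0.10, RTS3, annotated to a protein phosphatase complex, at 0.20, YRO2, linked to acid stress, at 0.28, ADE17 of purine synthesis at 0.31 and AQR1, an exporter gene, at 0.33. MCH5 stood at 2695, 2600 and 2187 in DS/AA and at 550, 549 and 530 in DS/AA-H/G, like HSP12 with library 3 lowest in DS/AA. Of the 10 genes, MOH1 and DDR2 were nearest to HSP12, at 0.44 and 0.47, and MSN4 farthest, at 3.14. The distance is dominated by the difference between strains, so it groups genes of a like fold.

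In the authors' deposited table, which uses another test, 9 of the 10 genes had q under 0.05, as 41.5% of its rows did. Its log2 ratios were 2.14 for HSP12, 2.36 for MOH1, 1.85 for DDR2 and -0.41 for MSN4, and MSN2 had a q of 0.194 in the authors' deposited table.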

How the data were processed

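RNA-seq libraries were made per the labels' protocols with the NEBNext Ultra II Directional kit. The submitters' processing notes name Salmon 1.2.1, cutadapt 1.18, bcl2fastq 2 and R 3.5.1, with build R64, while settings, strand use and scaling method were not given in the sources used here. Deposited values are a signal, estimated reads divided by 1 library factor. That unit rests on the values, of which 93.3% to 96.4% of those under 10 steps, but only 36.5% to 44.0% of all, were whole multiples of the library's step within 0.01, so no count model was applied. The authors also deposited a log2 ratio, a p-value and q-value, a mark for q under 0.05 and a score that ranks the rows.

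Groups and replicate numbers came from the sample titles. The filter kept rows that reached 1 in 3 or more of the 6 libraries, 6197 of 6416. They were fitted on the log2(value + 1) scale by limma 3.58.1 under R 4.3.3, using a mean-variance trend and robust moderation. Calls had a Benjamini-Hochberg adjusted p under 0.05. This scale understates the change of low genes. The script was tested on simulated data. The design's test for values that are not counts was used. Identifiers were matched to RefSeq R64 (5811 matched, 5802 with the same start and end), and all 106 list names were found, 1 of them, GPP2, by synonym. Copies were sought with BLAST 2.17.0. The members and 8 gene lists were chosen with earlier results of these data known, and no list was tested as a set. Named genes were the 10 members, the paralogs and counterparts, and up to 3 called genes with the largest difference per list. Also named were CIT1 and the 5 closest to HSP12 among genes outside the 10 of at least 10 CPM (share of the column total). Others were named after their values were seen.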

Additional observations from a re-analysis of the deposited data

How the results depend on the processing

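The 14 alternatives changed the scaling, pseudocount (0.5 or 10), filter or moderation, or left out 1 library. All 10 genes kept their direction in each, and 8 of them kept their call. MSN2 was called at 0.127 with columns scaled to equal totals and at 0.0964 with equal totals without CIT1, and TMA10 without DS/AA replicate 1 (range of its log2 difference over the libraries left out 0.618 to 1.08). The rises numbered 7 or 8 of the 10 genes, and the falls 1. The log2 difference of HSP12 stayed between 2.08 and 2.23 and that of MSN4 between -0.462 and -0.358. With columns scaled to equal totals 1841 genes were called higher and 747 lower, against 1368 and 1222 in the main fit. Under that scaling 12 signalling genes rose and 3 fell, 5 stress transcription factor genes rose and 0 paralogs fell. Under quantile normalization 5 stress transcription factor genes also rose, where 1034 of all tested genes did. By limma without trend or robust moderation 5 signalling genes rose and 0 paralogs fell, where 1232 of all tested genes rose and 964 fell. Leaving out 1 library gave 5 to 7 signalling genes risen, 4 to 8 fallen, and 0 to 2 paralogs fallen. Over all tested genes it gave 1106 to 1317 risen and 903 to 1259 fallen. The cause was not tested. Other target genes that rose numbered 29 to 33 over the 14 alternatives, where 1034 to 1841 of all tested genes rose. No paired analysis was possible because the strains share no replicate number. Depth limits SIP18 and SPG1, which held few reads.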

Other observations

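Across the genome, the share of genes that rose in DS/AA was larger in groups with more AGGGG matches in the 500 bases before the coding start. It was 19.2% of 4020 tested genes with no match, 25.5% of 1588 with 1, 35.6% of 385 with 2 and 38.3% of 115 with 3 or more. The share that fell was 21.0%, 18.6%, 16.6% and 14.8% in the same order, and the median log2 difference was -0.01, 0.03, 0.09 and 0.07. These are descriptions without a test, the groups include the 10 genes described above, and neighbouring genes can share a window.

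Of 5 genes specific to mating type a, 3 fell in DS/AA, beside 19.7% of all tested genes called lower. BAR1, which encodes a protease that degrades alpha factor, stood at 5995, 5731 and 5416 in DS/AA against 8737, 9198 and 10236 in DS/AA-H/G (log2 difference -0.71 ± 0.06, limma adjusted p = 2.37e-06). STE2, the alpha factor receptor gene, was at -0.62 ± 0.03 and STE6, the a-factor exporter gene, at -0.32 ± 0.03. MFA1 and MFA2 were not called (limma adjusted p = 0.229 and 0.107), and their libraries overlapped between strains. The alpha-specific list summed to 509 to 603 in DS/AA against 431 to 448 in DS/AA-H/G, with STE3 at 0.31 ± 0.08 (limma adjusted p = 0.00916), which overlaps a row on the opposite strand. Of 4 galactose genes, GAL1 and GAL7 fell, by 0.15 and 0.21 on the log2 scale. GAL10 and GAL2 were not called, and their libraries overlapped between strains. The list summed to 1000571 to 1116707 in DS/AA against 1138726 to 1245373 in DS/AA-H/G. Scaled totals over all rows were also lower in DS/AA, at 30728882 to 30796672 against 31761853 to 32121992, and the sums were not divided by them. The part of these shifts in the stress gene results was not tested.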
